A study of Rattus norvegicus with 9 samples.

Results

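The genes of cholesterol and fatty acid synthesis form 2 linked pathways that build membrane lipids from acetyl-CoA. A set of 33 such genes was taken from cultured rat smooth muscle cells of the pulmonary artery, which form the muscular layer of the vessel wall and set its tone by contracting, by matching the gene name or accession of each non-control probe on the array. All 33 had a probe, 53 probes in all, and 32 of the 22103 genes tested were members. Acacb, the acetyl-CoA carboxylase isoform tied to mitochondria, was not tested, since no array had its sole probe well above background. Of the 33, 5 encode enzymes that consume molecular oxygen (Sqle, Cyp51, Sc5d, Fads1 and Fads2) and 28 do not.

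The cells came from male SD rats and were studied at culture generation 4, with 3 groups of 3 arrays. The first group was kept in normoxia. The second was kept in hypoxia, in a chamber with 1% oxygen and 5% carbon dioxide, and the third in the same hypoxia with quercetin, a plant flavonol, at a dose the sources used here do not state. All groups had gone 24 h without serum before 24 h in medium with 10% serum, at 37 °C, and the cells not given quercetin had 0.1% DMSO, its vehicle. The labels do not say that the samples of a group were separate cultures, so the p-values reflect the spread among these arrays alone, and that spread may be technical.

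As background, cells make cholesterol by joining acetyl-CoA units into mevalonate, building squalene from it, closing squalene into lanosterol and trimming that sterol. Several of these steps, like the desaturation of fatty acids, use molecular oxygen. Transcription of both pathways is driven by the sterol regulatory element-binding proteins (SREBPs), which the escort protein SCAP carries from the endoplasmic reticulum to the Golgi for cleavage when sterols are low. The INSIG proteins hold SCAP back when sterols are high.

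Values below are log2 intensities relative to the array's own 75th percentile, called levels, and a change is a difference between group means in log2 units ± its standard error. Each adjusted p is limma's moderated test with Benjamini-Hochberg adjustment over all genes, and a gene passed under 0.05. A level serves to compare arrays for 1 probe, not 1 gene with another.

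Across the arrays, the 75th percentile of spot intensity lay between 627 and 640 in normoxia, between 439 and 462 in hypoxia and between 450 and 504 with quercetin, and 53.4% to 74.7% of spots were well above background. With 8 spike-in probes as the scale, the median of all genes in hypoxia against normoxia lay at -0.40 in place of 0.10, with 2593 genes higher and 10702 lower in place of 7801 and 6389. For quercetin against normoxia that scale gave 1629 higher and 9501 lower in place of 5084 and 4707, so every change below is relative to the bulk of the array. Normoxia replicates 1 and 2 shared a slide and a scan day, normoxia replicate 3 and the hypoxia arrays shared the next slide, and the quercetin arrays had a slide of their own. Quercetin and slide cannot be told apart. Among smooth muscle markers 7 of 8 were tested, of which 4 rose and none fell in hypoxia and 5 fell with quercetin, and their summed linear level lay between 137 and 210.0 in normoxia, between 322 and 343 in hypoxia and between 95.4 and 113 with quercetin. The sole adipocyte marker tested, Pparg, fell in hypoxia (-1.89, adjusted p = 6.65e-06) and lay below normoxia with quercetin (-1.78, adjusted p = 2.18e-05), while Adipoq, Plin1, Fabp4, Cidec and Lep were not well above background on all arrays of any group, and neither were the endothelial Pecam1, Vwf, Tek and Tie1. All 6 fibroblast markers were tested: in hypoxia 2 rose and 3 fell, among them Dcn (-4.24), Lum (-3.62) and Fap (-1.45), and their summed level, led by Col1a1, lay between 319 and 382 in normoxia, between 511 and 599 in hypoxia and between 405 and 505 with quercetin. Of 6 leukocyte markers 4 were tested, of which 2 rose in hypoxia, Lyz2 by 4.10 and Cd74 by 0.34, and their summed level lay between 1.12 and 1.42 in normoxia, between 1.76 and 1.95 in hypoxia and between 1.28 and 1.56 with quercetin. Summed epithelial keratins Krt7, Krt8 and Krt18 moved with the groups, between 3.69 and 5.42 in normoxia, between 39.4 and 46.8 in hypoxia and between 7.36 and 8.93 with quercetin, while Epcam and Cdh1 were not well above background on all arrays of any group. The part of these shifts in the results was not tested, and fewer cells of a type cannot be told apart from less RNA per cell.

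In hypoxia 17 of the 32 tested members (53.1%) fell against normoxia, beside 28.9% of all genes tested, and 4 (12.5%) rose, beside 35.3% of all genes. The share that passed in either direction, 65.6%, lay near the 64.2% of all genes. The median change of the members was -0.38, against 0.10 over all genes. Hypoxia and normoxia arrays did not overlap for 24 of 32 members, or 75%, beside 71.7% of all genes. The scale set by the spike-in probes lowered the change of each member in hypoxia by the same amount. The 17 decreases could therefore not change sign there, which is no support for them. Of the 4 increases only that of Insig1 still passed (1.66). Insig2 gave 0.76 (adjusted p = 0.106), and Pmvk and Elovl1 turned to -0.066 and -0.10. Within the slide that held both groups, where normoxia replicate 3 was the sole control, 10 members passed as lower and 1 as higher. That lone array is assumed to vary like the other groups, which supply the spread for every p within the shared slide.

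With quercetin, 12 of the 32 members (37.5%) were higher than in hypoxia without it, beside 26.9% of all genes tested, and 8 (25%) were lower, beside 31.5%. In either direction 62.5% of members passed, beside 58.4% of all genes, and the members' median change was 0.08, against -0.08 over all genes. The arrays of the 2 groups did not overlap for 24 members, beside 71.1% of all genes. Set against normoxia, cells in hypoxia with quercetin had 5 members higher (15.6%, beside 23.0% of all genes) and 9 lower (28.1%, beside 21.3%), which is 43.8% of members in either direction beside 44.3% of all genes. For that comparison 18 members did not overlap, or 56.2%, beside 53.6% of all genes. The comparisons share arrays: hypoxia enters the first 2 and quercetin the last 2.

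**Figure D1:**
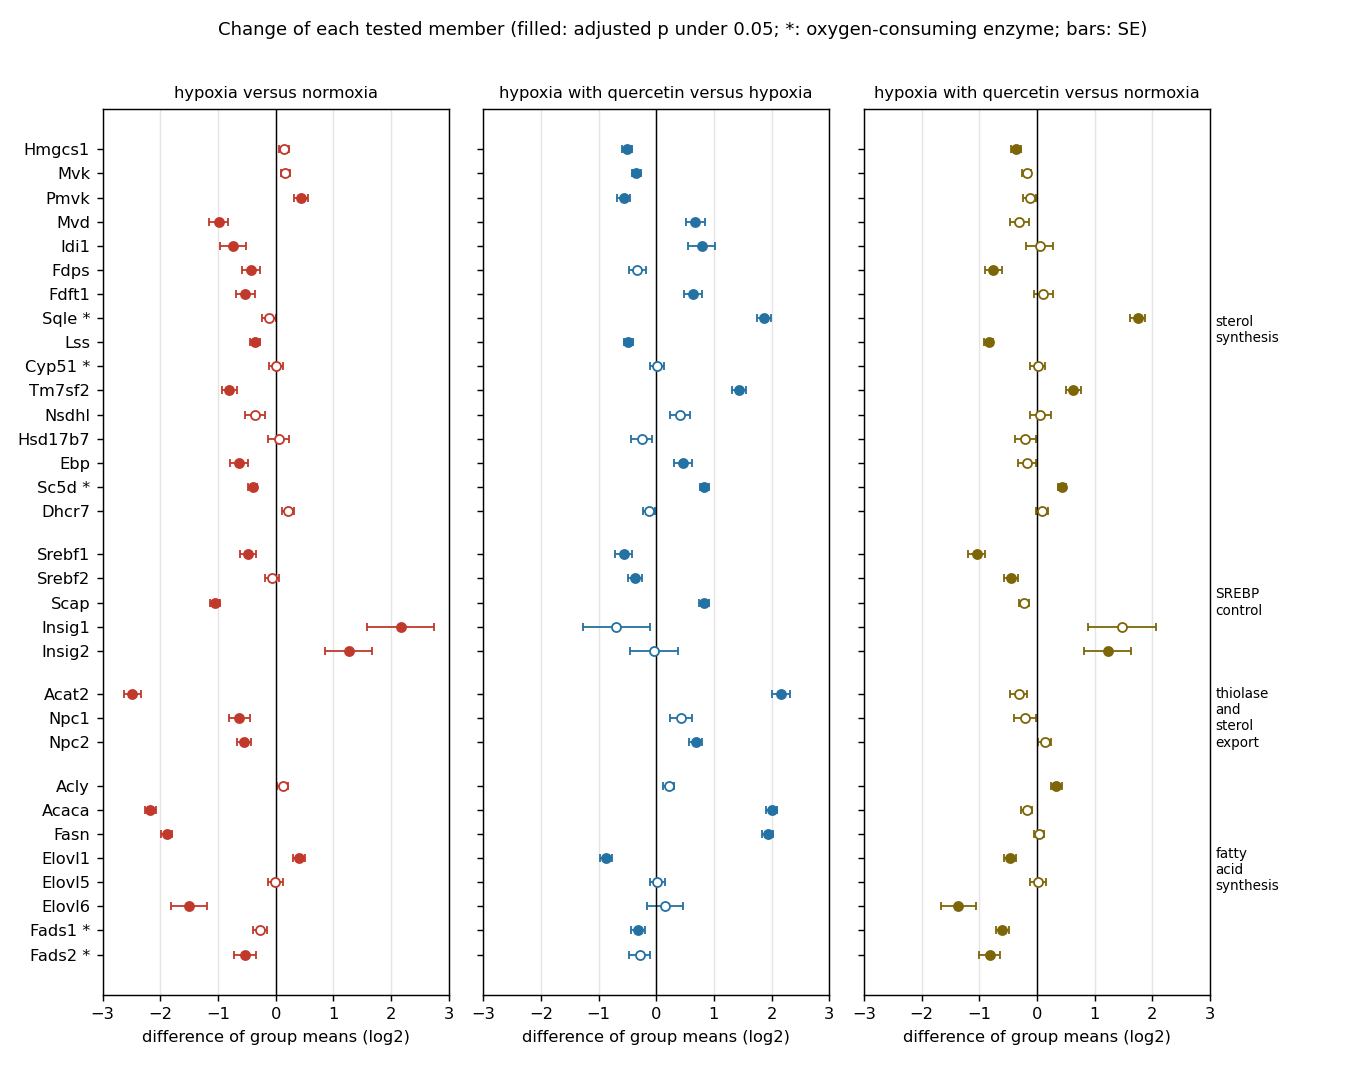
Difference of group means (x axis, log2 units) for each of the 32 tested members (y axis, by role) in the 3 comparisons. Bars are standard errors, filled points passed at an adjusted p under 0.05 and asterisks mark oxygen-consuming enzymes. Acat2, Acaca and Fasn lie lowest in hypoxia against normoxia (-2.49, -2.18 and -1.89), and in quercetin against hypoxia Acat2, Acaca, Fasn and Sqle lie highest (2.17, 2.00, 1.93 and 1.86).

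The 5 genes of SREBP control moved in different directions in hypoxia: Insig1 and Insig2, the retention proteins, rose, Scap and Srebf1 fell, and Srebf2 did not pass. Insig1 stood at 4.85, 2.90 and 4.94 in normoxia, at 6.41, 6.44 and 6.35 in hypoxia and at 5.05, 6.70 and 5.37 with quercetin. All 3 hypoxia arrays lay above all normoxia arrays, by 2.17 ± 0.58 (n = 3 per group, adjusted p = 0.0112), a 4.51-fold difference that its 4 probes gave alike, at 2.17 to 2.27. Normoxia replicate 2 lay far below the other normoxia arrays, and without it the change was 1.51 (adjusted p = 0.0198). Against normoxia replicate 3 alone, within their slide, it was 1.46 (adjusted p = 0.176). The quercetin arrays spread on both sides of the hypoxia arrays, with a change of -0.69 ± 0.58 that did not pass (adjusted p = 0.335).

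Insig2 stood at 1.06, -0.51 and 1.02 in normoxia, at 1.81, 1.79 and 1.79 in hypoxia and at 1.45, 2.28 and 1.54 with quercetin. It rose in hypoxia by 1.27 ± 0.41 (adjusted p = 0.0245) and stayed above normoxia with quercetin, by 1.23 ± 0.41 (adjusted p = 0.0387). Here too normoxia replicate 2 was the low array, and without it the changes were 0.75 and 0.71. The hypoxia call was lost without hypoxia replicate 1, 2 or 3, each with 2 arrays left in that group (adjusted p up to 0.0597). The quercetin call was lost without any 1 of the 6 hypoxic arrays (adjusted p up to 0.122). Within the shared slide the rise of Insig2 in hypoxia was 0.77 (adjusted p = 0.296).

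Scap, the escort, stood at 2.75, 2.78 and 2.70 in normoxia, at 1.74, 1.58 and 1.76 in hypoxia and at 2.50, 2.57 and 2.48 with quercetin. The 3 groups did not overlap: hypoxia lay lowest and quercetin just under normoxia. Scap fell in hypoxia by 1.05 on the log2 scale (SE 0.08, adjusted p = 1.96e-05), was 0.83 ± 0.08 higher with quercetin than without (adjusted p = 8.01e-05), and its difference of -0.23 ± 0.08 between quercetin and normoxia missed the threshold (adjusted p = 0.0564), which on the spike-in scale it passed at -0.63 (adjusted p = 0.00126). Within the shared slide its change in hypoxia was -1.01 (adjusted p = 0.00076).

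Srebf1, which encodes the SREBP of fatty acid synthesis, stood at 3.37, 2.83 and 3.39 in normoxia, at 2.76, 2.67 and 2.72 in hypoxia and at 2.17, 2.15 and 2.14 with quercetin. The groups formed steps downward with no overlap. The first step was -0.48 ± 0.15 (adjusted p = 0.0192) and the second -0.56 ± 0.15 (adjusted p = 0.0104), so that quercetin-treated cells lay 2.06-fold under normoxic ones (-1.04 ± 0.15, adjusted p = 0.000729). The first step was lost without normoxia replicate 1, normoxia replicate 3 or hypoxia replicate 2 (adjusted p up to 0.0693). A dimmer probe gave -0.44 and -0.66 for these steps, and the dimmest -0.40 and 0.34, the opposite direction for the second. With the 3 probes averaged the second step was -0.29 (adjusted p = 0.0504). Srebf2, the SREBP of cholesterol synthesis, differed by -0.07 ± 0.12 between hypoxia and normoxia (adjusted p = 0.647), or by -0.57 on the spike-in scale, which passed (adjusted p = 0.00627), and was lower with quercetin than in hypoxia alone, by -0.37 ± 0.12 (adjusted p = 0.0264). That call was lost without hypoxia replicate 1 or 2 or quercetin replicate 1 or 3 (adjusted p up to 0.0851), and on the spike-in scale (-0.27, adjusted p = 0.137).

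**Figure D2:**
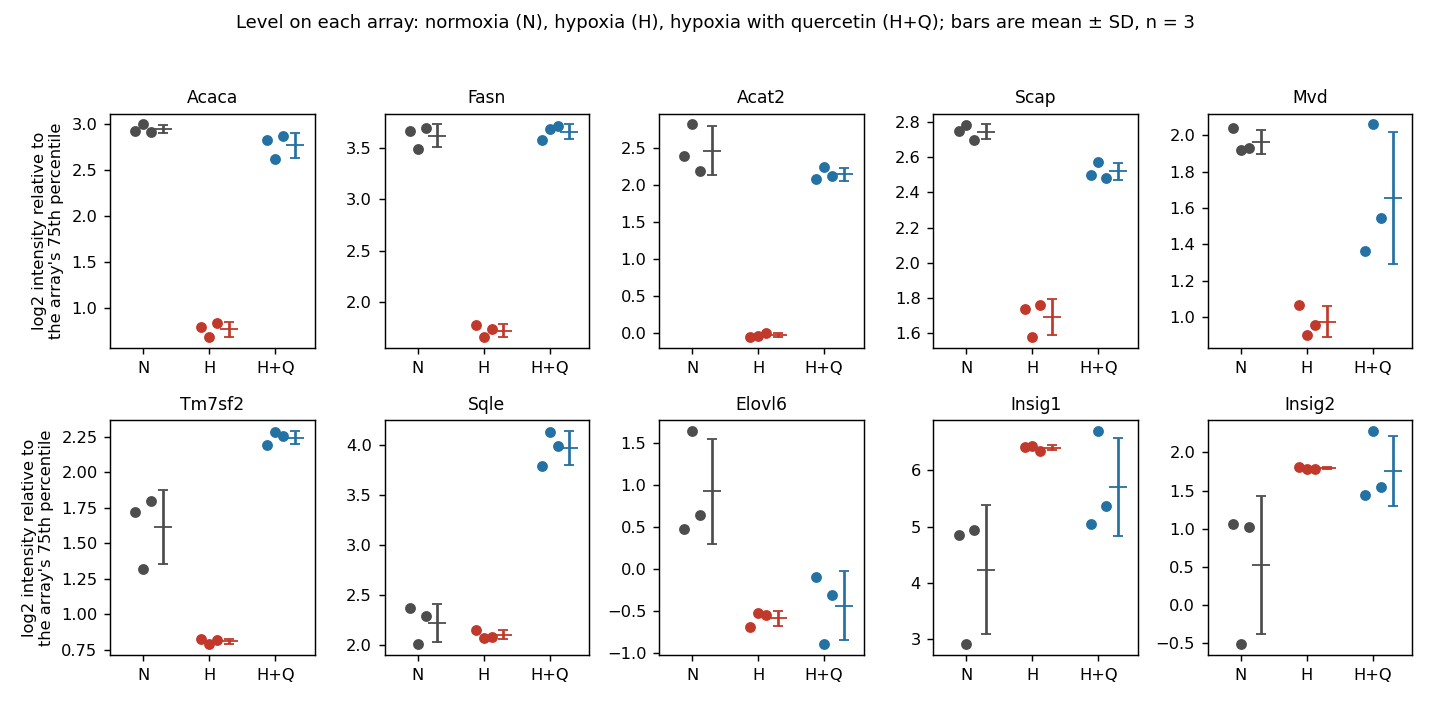
Level (y axis, log2 intensity relative to the array's 75th percentile) of 10 members on each array in normoxia (N), hypoxia (H) and hypoxia with quercetin (H+Q), with mean ± SD, n = 3. Each panel has its own y range. The hypoxia arrays lie below all others for Acaca, Fasn, Acat2, Scap, Mvd and Tm7sf2, the quercetin arrays lie above all others for Sqle, and normoxia replicate 2 stands low for Insig1 (2.90) and Insig2 (-0.51).

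The 250 bases before the start of these regulators are printed because they moved most within the group and in opposite directions, Insig1 and Insig2 up and Scap down in hypoxia. The windows come from RefSeq (assembly GRCr8) and are written 5′ to 3′ on the gene's strand: Insig1 at chr4:8057770-8058019 on the minus strand, Insig2 at chr13:35040099-35040348 on the minus strand and Scap at chr8:119184188-119184437 on the plus strand. Capitals mark the letters CCAAT, which the factor NF-Y binds, and ACGTG, the core of the element that hypoxia-inducible factors bind, on either strand.
Insig1: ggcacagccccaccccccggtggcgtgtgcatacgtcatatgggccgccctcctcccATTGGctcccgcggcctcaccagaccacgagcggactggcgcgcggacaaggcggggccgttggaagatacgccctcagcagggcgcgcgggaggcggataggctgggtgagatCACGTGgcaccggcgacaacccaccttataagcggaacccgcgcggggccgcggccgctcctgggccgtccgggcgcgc
Insig2: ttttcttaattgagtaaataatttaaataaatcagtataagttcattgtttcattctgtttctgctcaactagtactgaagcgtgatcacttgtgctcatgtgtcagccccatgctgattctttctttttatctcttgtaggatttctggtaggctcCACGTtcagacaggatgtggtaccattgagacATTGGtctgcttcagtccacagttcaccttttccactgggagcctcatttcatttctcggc
Scap: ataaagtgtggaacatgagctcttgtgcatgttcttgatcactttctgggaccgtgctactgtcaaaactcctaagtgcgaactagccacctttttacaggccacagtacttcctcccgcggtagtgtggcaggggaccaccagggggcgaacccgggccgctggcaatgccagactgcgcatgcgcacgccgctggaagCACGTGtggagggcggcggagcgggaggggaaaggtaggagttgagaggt
Insig1 and Scap each held CACGTG, which contains ACGTG on both strands and also spells the E-box of basic helix-loop-helix factors, a family that includes the SREBPs. Insig2 held 1 ACGTG without that flank. Insig1 and Insig2 held 1 CCAAT each and Scap none.

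Such windows were at hand for 27 of the 33 members, and those of Pmvk, Fdft1, Sqle, Acaca, Fasn and Elovl6 were not. ACGTG stood in 6 of the 27 (22.2%): Insig1, Insig2, Scap, Sc5d, Npc1 and Elovl5. Of all 33469 windows of this length, 16.6% held it. CACGTG, a subset of these, stood in 4 (14.8%), beside 5.59% of all. CCAAT stood in 20 members (74.1%), beside 34.0% of all windows, with 11 of 13 sterol synthesis genes, 4 of 5 SREBP control genes, 1 of 3 in the thiolase and export group and 4 of 6 fatty acid genes. TCACNCCAC, the letters of a classical sterol regulatory element, stood in none of the 27 and in 0.974% of all windows. A match describes letters and shows no binding, and a window without a match says only that these letters are not in it.

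Among the 16 enzymes of sterol synthesis, 8 fell in hypoxia, 1 rose and 7 did not pass, so 56.2% passed in either direction, beside 64.2% of all genes (28.9% lower and 35.3% higher). With quercetin 7 were higher than in hypoxia alone, 4 lower and 5 did not pass, beside 26.9% and 31.5% of all genes. Against normoxia, quercetin-treated cells had 3 higher, 3 lower and 10 that did not pass, so 37.5% passed, beside 44.3% of all genes. The decreases in hypoxia began at Mvd and ran through later steps, and the first 3 enzymes of the list did not fall.

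Hmgcs1 and Mvk, which make hydroxymethylglutaryl-CoA and phosphorylate mevalonate, changed in hypoxia by 0.15 ± 0.09 and 0.17 ± 0.08 and did not pass (adjusted p = 0.175 and 0.0956), while on the spike-in scale both passed as lower, by -0.36 and -0.34 (adjusted p = 0.0259 and 0.0205). A dimmer Hmgcs1 probe gave 0.72. Hmgcs1 passed as higher in hypoxia with its probes averaged (0.43, adjusted p = 0.00411) and without normoxia replicate 2 (0.21, adjusted p = 0.0393), so its direction and call depend on probe and scale. Pmvk, the next kinase, stood at 1.46, 1.39 and 1.45 in normoxia, 1.89, 1.84 and 1.90 in hypoxia and 1.12, 1.56 and 1.25 with quercetin. It rose in hypoxia by 0.44 ± 0.11 (adjusted p = 0.00948), though not on the spike-in scale, as given above, and within the shared slide the change of 0.43 missed the threshold (adjusted p = 0.0769). These first 3 enzymes were all lower with quercetin than in hypoxia alone, Hmgcs1 by -0.51 ± 0.09, Mvk by -0.34 ± 0.08 and Pmvk by -0.56 ± 0.11 (adjusted p = 0.00141, 0.00585 and 0.00322). On the spike-in scale Mvk missed the threshold there (-0.24, adjusted p = 0.0909).

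Mvd, which decarboxylates mevalonate diphosphate to the isoprenoid unit, stood at 2.04, 1.92 and 1.93 in normoxia, 1.07, 0.90 and 0.96 in hypoxia and 1.36, 2.06 and 1.54 with quercetin. The hypoxia arrays lay below all others. The decrease was -0.99 ± 0.17, or 1.98-fold (adjusted p = 0.00106), and the quercetin arrays lay 0.68 ± 0.17 above hypoxia (adjusted p = 0.00789), with replicate 2 the highest. Idi1, the isomerase of that unit, fell in hypoxia by -0.74 ± 0.23 (adjusted p = 0.0217) and was 0.79 ± 0.23 higher with quercetin (adjusted p = 0.0181). Normoxia replicate 2 was the high array for Idi1, at 1.12 against 0.27 and 0.38, and without it the change in hypoxia was -0.47. The call was lost without hypoxia replicate 1 or 3 (adjusted p up to 0.0555), within the shared slide (-0.52, adjusted p = 0.232), and for the quercetin comparison without quercetin replicate 2 (adjusted p = 0.0615).

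Fdps, which makes farnesyl diphosphate, changed by -0.43 ± 0.15 in hypoxia (adjusted p = 0.0333), by -0.33 ± 0.15 with quercetin against hypoxia, which did not pass (adjusted p = 0.0904), and by -0.75 ± 0.15 between quercetin and normoxia (adjusted p = 0.00403). Normoxia replicate 2 was again the high array for it, at 4.02 against 3.48 in both others. Without that array the change in hypoxia was -0.25 and still passed, and without hypoxia replicate 1, 2 or 3 or quercetin replicate 3 it did not (adjusted p up to 0.0837), nor within the shared slide (-0.25, adjusted p = 0.345). Fdft1, squalene synthase, fell by -0.53 ± 0.16 in hypoxia (adjusted p = 0.0206) and was 0.64 ± 0.16 higher with quercetin (adjusted p = 0.00987). Its hypoxia call was lost without normoxia replicate 1 or hypoxia replicate 3 (adjusted p up to 0.0654), and within the shared slide (-0.52, adjusted p = 0.123).

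Lss, which closes the epoxide of squalene into lanosterol, stood at 0.20, 0.18 and 0.02 in normoxia, -0.26, -0.20 and -0.20 in hypoxia and -0.68, -0.70 and -0.73 with quercetin. The 3 groups were fully separate and stepped down. Lss changed by -0.36 ± 0.08 in hypoxia (adjusted p = 0.00491) and by -0.48 ± 0.08 with quercetin against hypoxia (adjusted p = 0.00117), the reverse of the direction that its neighbours Fdft1 and Sqle took with quercetin. Within the shared slide its change in hypoxia was -0.24 (adjusted p = 0.0876).

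Tm7sf2, a sterol reductase that acts after lanosterol is demethylated, stood at 1.72, 1.31 and 1.80 in normoxia, 0.82, 0.79 and 0.81 in hypoxia and 2.19, 2.28 and 2.26 with quercetin. The hypoxia arrays lay lowest and the quercetin arrays above all normoxia arrays. It fell in hypoxia by -0.80 ± 0.13 (adjusted p = 0.000731), was 2.70-fold higher with quercetin than without (1.43 ± 0.13, adjusted p = 4.13e-05) and exceeded normoxia by 0.63 ± 0.13 (adjusted p = 0.00424), or by 0.23 on the spike-in scale, which did not pass (adjusted p = 0.18). Ebp, a sterol isomerase, fell by -0.63 ± 0.15 in hypoxia (adjusted p = 0.00734) and was 0.46 ± 0.15 higher with quercetin (adjusted p = 0.0309), a call lost without any 1 of the 6 arrays compared (adjusted p up to 0.0838). Within the shared slide the decrease of Ebp in hypoxia was -0.35 and did not pass (adjusted p = 0.151). Nsdhl and Hsd17b7, which act in the removal of methyl groups from the sterol ring, and Dhcr7, a late reductase, did not pass in any comparison, with changes of -0.36 to 0.42, -0.25 to 0.05 and -0.13 to 0.21. On the spike-in scale Nsdhl fell in hypoxia (-0.86, adjusted p = 0.00574), and Hsd17b7 was lower with quercetin than in normoxia (-0.60, adjusted p = 0.0313). Without normoxia replicate 2, Nsdhl passed as higher with quercetin than in hypoxia alone (0.42, adjusted p = 0.00945). Hsd17b7 was well above background on 2 of 3 hypoxia arrays and 2 of 3 quercetin arrays.

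Promoters of sterol enzymes that fell in hypoxia and were higher with quercetin than without are printed to show how the CCAAT letters lie in the group, with capitals as above. They lie at chr19:67414975-67415224 on the minus strand for Mvd, chr1:212789542-212789791 on the minus strand for Tm7sf2 and chr8:51538278-51538527 on the minus strand for Sc5d.
Mvd: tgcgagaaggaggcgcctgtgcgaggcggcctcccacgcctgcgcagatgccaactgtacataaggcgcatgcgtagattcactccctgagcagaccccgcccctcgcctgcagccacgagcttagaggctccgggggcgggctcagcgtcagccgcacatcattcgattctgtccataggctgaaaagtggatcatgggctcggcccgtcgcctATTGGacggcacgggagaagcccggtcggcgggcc
Tm7sf2: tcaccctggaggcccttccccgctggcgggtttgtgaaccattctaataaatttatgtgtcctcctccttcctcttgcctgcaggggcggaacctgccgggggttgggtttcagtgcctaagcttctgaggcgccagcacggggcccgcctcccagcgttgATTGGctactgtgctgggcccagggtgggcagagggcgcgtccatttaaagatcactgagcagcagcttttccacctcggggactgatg
Sc5d: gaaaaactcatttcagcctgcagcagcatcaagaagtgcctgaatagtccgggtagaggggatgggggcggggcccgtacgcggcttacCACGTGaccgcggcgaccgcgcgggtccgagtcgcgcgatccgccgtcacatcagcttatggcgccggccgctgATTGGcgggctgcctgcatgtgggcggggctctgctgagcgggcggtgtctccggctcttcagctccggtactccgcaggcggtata
Each held 1 CCAAT, read as ATTGG on the printed strand, and Sc5d also held CACGTG. Neither Mvd nor Tm7sf2 held ACGTG.

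Of the 5 oxygen-consuming members, 2 fell in hypoxia (Sc5d and Fads2), 0 rose and 3 missed the threshold, so 40% passed, beside 64.2% of all genes. Their median change was -0.28. Of the 27 other members tested, 15 fell, 4 rose and 8 missed the threshold, and the median was -0.43. By array, the median of the 5 relative to the normoxia means was -0.24, -0.15 and -0.34 in hypoxia and -0.03, -0.11 and 0.07 in normoxia, and that of the 27 others was -0.39, -0.46 and -0.47 in hypoxia. With quercetin against hypoxia, 2 of the 5 were higher and 1 lower, with a median of 0.01, beside 10 higher and 7 lower of the 27 others, with a median of 0.15. Against normoxia the counts with quercetin were 2 higher and 2 lower of the 5, and 3 higher and 7 lower of the 27. In quercetin against hypoxia 60% of the 5 and 63.0% of the others passed, beside 58.4% of all genes (26.9% higher and 31.5% lower). In quercetin against normoxia 80% and 37.0% passed, beside 44.3% of all genes (23.0% higher and 21.3% lower). The counts in hypoxia depend on the scale. On the spike-in scale all 5 passed as lower, with Sqle at -0.62, Cyp51 at -0.50 and Fads1 at -0.78. There 26 of the 32 tested members passed as lower, beside 10702 of the 22103 genes. A median over 5 genes rests on 1 enzyme, and the difference between the lists was not tested.

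Sqle, squalene epoxidase, the first oxygen-consuming step of the sterol branch, stood at 2.37, 2.01 and 2.29 in normoxia, 2.15, 2.08 and 2.09 in hypoxia and 3.79, 4.13 and 3.99 with quercetin. The normoxia and hypoxia arrays overlapped (-0.12 ± 0.12, adjusted p = 0.429, 95% interval -0.40 to 0.17), and on the spike-in scale the change was -0.62 and passed (adjusted p = 0.00174). All quercetin arrays lay above both, by 1.86 ± 0.12 over hypoxia (3.64-fold, adjusted p = 1.13e-05) and 1.75 ± 0.12 over normoxia (3.35-fold, adjusted p = 2.82e-05). Cyp51, the oxygen-consuming lanosterol demethylase, stood at 1.30, 1.26 and 1.54 in normoxia, 1.42, 1.40 and 1.30 in hypoxia and 1.18, 1.58 and 1.38 with quercetin. Its arrays overlapped throughout, with changes of 0.00 to 0.01 in the 3 comparisons and 95% intervals within -0.28 to 0.30. On the spike-in scale Cyp51 changed by -0.50 in hypoxia and -0.39 with quercetin against normoxia (adjusted p = 0.00454 and 0.0214).

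Sc5d, the sterol desaturase that acts near the end of the pathway, stood at 0.44, 0.38 and 0.40 in normoxia, -0.02, 0.02 and 0.04 in hypoxia and 0.80, 0.81 and 0.93 with quercetin. The groups did not overlap: hypoxia was lowest and quercetin highest. It fell by -0.40 ± 0.08 in hypoxia (adjusted p = 0.00216), a decrease that passed within the shared slide too (-0.39, adjusted p = 0.0249), and was 0.83 ± 0.08 higher with quercetin (adjusted p = 4.98e-05). It exceeded normoxia by 0.44 ± 0.08 (adjusted p = 0.00223), though by 0.04 on the spike-in scale (adjusted p = 0.818).

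Fads1, a desaturase of polyunsaturated fatty acids, stood at -0.61, -0.35 and -0.69 in normoxia, -0.79, -0.81 and -0.89 in hypoxia and -1.02, -1.34 and -1.08 with quercetin. The arrays stepped down without overlap. The step in hypoxia, -0.28 ± 0.12, missed the threshold (adjusted p = 0.0739), and the step with quercetin, -0.32 ± 0.12, lay at it (adjusted p = 0.0499) and was lost without normoxia replicate 1, without any 1 hypoxia array, or without quercetin replicate 2 or 3 (adjusted p up to 0.136). On the spike-in scale the step of Fads1 in hypoxia was -0.78 and passed (adjusted p = 0.00311), and that with quercetin was -0.21 (adjusted p = 0.314). The step in hypoxia also passed without normoxia replicate 3 or quercetin replicate 2 (adjusted p = 0.0473 and 0.0466). Quercetin against normoxia gave -0.60 ± 0.12 (adjusted p = 0.0046). Fads2, the partner desaturase, changed by -0.53 ± 0.19 in hypoxia (adjusted p = 0.0337) and -0.82 ± 0.19 between quercetin and normoxia (adjusted p = 0.00767), though 0.085 for the latter with another background correction (normexp). It was well above background on 2 of 3 hypoxia and 2 of 3 quercetin arrays. Its hypoxia call was lost without normoxia replicate 1 or 3 or hypoxia replicate 1 or 3 (adjusted p up to 0.0945), and without hypoxia replicate 3 the change was -0.33. It was lost within the shared slide too (-0.68, adjusted p = 0.0737) and with the replicate number as a block (adjusted p = 0.0552).

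Outside the set, 3 further oxygen-consuming enzymes were measured. Msmo1, a sterol methyl oxidase, stood at 5.38, 5.55 and 5.43 in normoxia, 4.93, 4.97 and 5.01 in hypoxia and 6.21, 6.71 and 6.26 with quercetin. It changed by -0.48 ± 0.13 in hypoxia (adjusted p = 0.0133) and 1.42 ± 0.13 with quercetin against hypoxia (adjusted p = 5.97e-05). Together, the 4 oxygen-consuming sterol enzymes had 3 higher and none lower with quercetin against hypoxia, where 26.9% of all genes were higher and 31.5% lower. The desaturases Scd and Scd2, which place the first double bond in saturated fatty acids, changed by 0.51 ± 0.14 and 0.85 ± 0.31 in hypoxia (adjusted p = 0.0136 and 0.0382) and by -0.48 ± 0.14 and 0.15 ± 0.31 with quercetin against hypoxia (adjusted p = 0.0197 and 0.704). With Fads1 and Fads2, the 4 desaturases had none higher and 2 lower in that comparison. A second Scd probe gave -0.99 in hypoxia, so its direction there depends on the probe. Scd2 stood at 5.89, 4.70 and 6.07 in normoxia and at 6.42, 6.39 and 6.39 in hypoxia. Normoxia replicate 2 was its low array and enlarges the rise of Scd2. The grouping by branch was made after the values were seen.

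**Figure D3:**
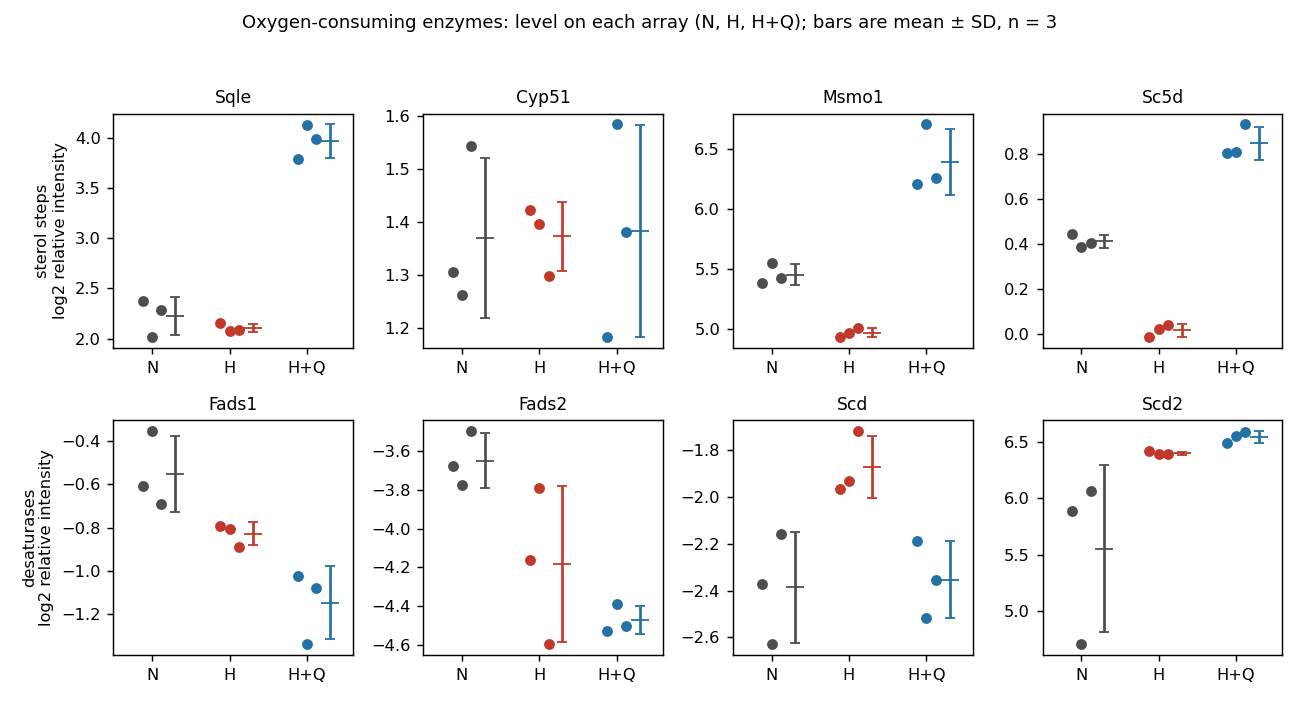
Level (y axis, log2 relative intensity, a separate range in each panel) of 8 oxygen-consuming enzymes on each array in normoxia (N), hypoxia (H) and hypoxia with quercetin (H+Q), with mean ± SD, n = 3. Sterol enzymes are in the upper row, where the quercetin arrays of Sqle, Msmo1 and Sc5d lie above all others and those of Cyp51 overlap them. Desaturases are in the lower row, where the quercetin arrays of Fads1 lie below all others.

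Acat2, the cytosolic thiolase that supplies acetoacetyl-CoA to sterol synthesis, had the largest decrease of the 32 members in hypoxia. It stood at 2.39, 2.82 and 2.18 in normoxia, -0.05, -0.03 and 0.01 in hypoxia and 2.07, 2.24 and 2.12 with quercetin. The hypoxia arrays lay far below both other groups, which overlapped. The decrease was -2.49 ± 0.15, or 5.60-fold (adjusted p = 6.28e-06), and with quercetin the level was 4.49-fold higher than without (2.17 ± 0.15, adjusted p = 1.44e-05). Between quercetin and normoxia the change was -0.32 ± 0.15 and did not pass (adjusted p = 0.123), and on the spike-in scale it was -0.72 (adjusted p = 0.00635). The array calls this probe Acat3, a synonym of Acat2 in RefSeq, and RefSeq lists a similar gene, Acat2l1, on the same chromosome, so a share of signal from that copy cannot be told apart. Npc1 and Npc2, which move cholesterol out of lysosomes, fell in hypoxia by -0.63 ± 0.19 and -0.55 ± 0.12 (adjusted p = 0.0191 and 0.00346). Npc2 was 0.68 ± 0.12 higher with quercetin than without (adjusted p = 0.00123), and the 0.42 ± 0.19 of Npc1 did not pass (adjusted p = 0.0862). The 5 Npc1 probes gave changes between -0.95 and -0.14 in hypoxia, and between -0.40 and 0.67 with quercetin, and its hypoxia call was lost without normoxia replicate 1 or 3 or hypoxia replicate 2 (adjusted p up to 0.0686).

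Of the 9 fatty acid genes, 8 were tested: 4 fell and 1 rose in hypoxia (62.5% in either direction, beside 64.2% of all genes), 2 were higher and 2 lower with quercetin than in hypoxia alone, and 1 was higher and 4 lower with quercetin than in normoxia. With quercetin 50% passed against hypoxia and 62.5% against normoxia, beside 58.4% and 44.3% of all genes. Acly, which cuts citrate to cytosolic acetyl-CoA, did not pass in hypoxia (0.13 ± 0.09, adjusted p = 0.264), and on the spike-in scale it changed by -0.38 (adjusted p = 0.00612). It was 0.34 ± 0.09 higher with quercetin than in normoxia (adjusted p = 0.018), and on the spike-in scale that difference was -0.061 (adjusted p = 0.609). With the replicate number as a block the difference missed the threshold (adjusted p = 0.052).

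Fasn, fatty acid synthase, stood at 3.67, 3.49 and 3.70 in normoxia, 1.78, 1.66 and 1.74 in hypoxia and 3.57, 3.69 and 3.71 with quercetin. The hypoxia arrays lay well below both other groups, which overlapped. The decrease was 3.71-fold (-1.89 ± 0.09, adjusted p = 2.79e-06), quercetin-treated cells lay 3.81-fold above hypoxic ones (1.93 ± 0.09, adjusted p = 3.43e-06), and they differed from normoxia by 0.04 ± 0.09 (adjusted p = 0.751, 95% interval -0.17 to 0.25). A second probe gave -1.56 and 1.94 for the first and second comparison. On the spike-in scale Fasn was lower with quercetin than in normoxia, by -0.36 (adjusted p = 0.0248).

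Acaca, which makes malonyl-CoA in the committed step of fatty acid synthesis, stood at 2.92, 3.00 and 2.91 in normoxia, 0.79, 0.68 and 0.83 in hypoxia and 2.82, 2.61 and 2.87 with quercetin by its brightest probe. That probe lies at rn4 chromosome 10, 72678945 to 72679004, in what the array describes as the 3' untranslated region. It fell 4.52-fold in hypoxia (-2.18 ± 0.09, adjusted p = 2.39e-06) and was 4.01-fold higher with quercetin than without (2.00 ± 0.09, adjusted p = 3.66e-06). A second probe moved the other way, and is printed because the direction of Acaca depends on it. It lies at rn4 chr10:72677048-72677107, and no letters are in capitals.
Acaca: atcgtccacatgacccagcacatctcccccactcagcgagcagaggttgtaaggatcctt
The array assigns it to the RefSeq messenger RNA of Acaca. It stood at -2.58, -2.38 and -2.52 in normoxia, -1.97, -2.19 and -1.91 in hypoxia and -2.25, -2.29 and -2.19 with quercetin, so its hypoxia arrays lay above all normoxia arrays, by 0.47, and its change with quercetin was -0.22. With the 2 probes averaged, Acaca changed by -0.85 in hypoxia. Which of the probes follows the amount of Acaca message was not tested.

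**Figure D4:**
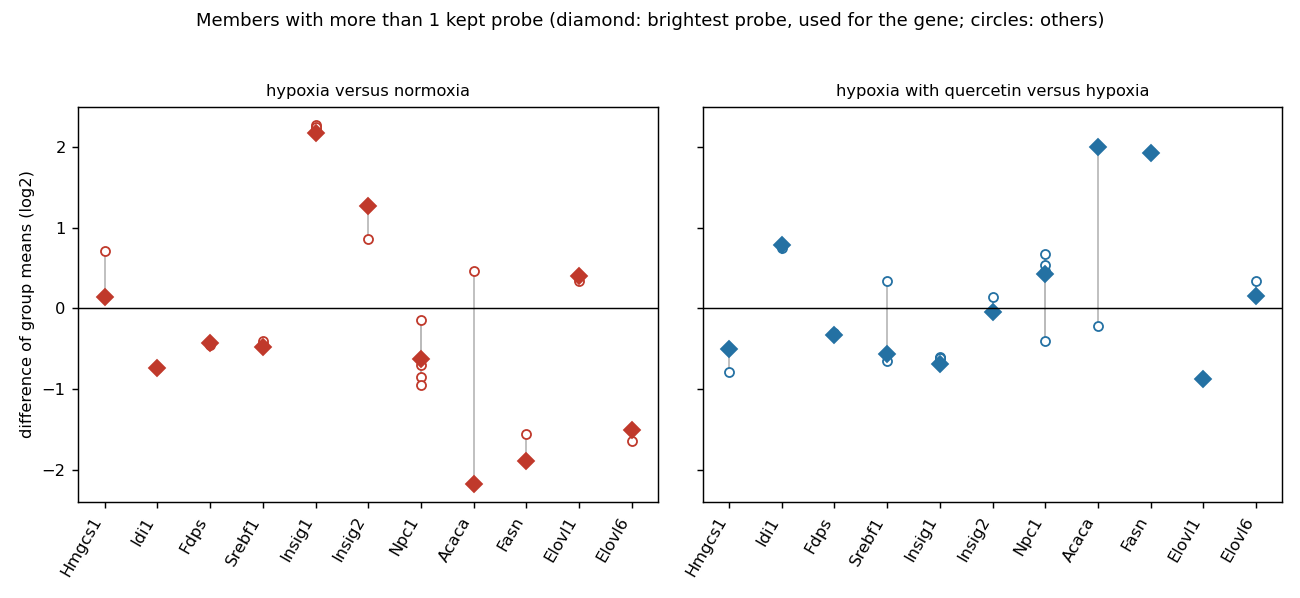
Difference of group means (y axis, log2 units) by probe for the 11 members with more than 1 probe kept (x axis), for the effect of hypoxia and for quercetin added to hypoxia. Diamonds are the brightest probe, which stands for the gene in the tests, and circles are the others. The 4 Insig1 probes lie together in hypoxia (2.17 to 2.27), and the 2 Acaca probes lie on opposite sides of 0 (-2.18 and 0.47).

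Elovl6, the elongase that carries palmitate to stearate, stood at 0.48, 1.64 and 0.65 in normoxia, -0.69, -0.52 and -0.55 in hypoxia and -0.10, -0.89 and -0.31 with quercetin. Both hypoxic groups lay below normoxia and overlapped each other. It fell by -1.51 ± 0.31 in hypoxia (adjusted p = 0.00306), and quercetin-treated cells lay -1.36 ± 0.31 from normoxia (adjusted p = 0.00792) and 0.15 ± 0.31 from hypoxia (adjusted p = 0.702). Normoxia replicate 2 was the high array, and without it the change in hypoxia was -1.15, and both differences from normoxia still passed. Within the shared slide the decrease in hypoxia was -1.23 (adjusted p = 0.0577). Elovl1, an elongase of saturated very long chains, stood at 1.28, 1.13 and 1.05 in normoxia, 1.61, 1.48 and 1.58 in hypoxia and 0.58, 0.84 and 0.64 with quercetin. Hypoxia was the highest group and quercetin the lowest, with no overlap. The rise was 0.40 ± 0.10 (adjusted p = 0.00863), passing within the shared slide at 0.51 (adjusted p = 0.0234) but not on the spike-in scale, and the change with quercetin against hypoxia was -0.87 ± 0.10 (adjusted p = 0.00018). Elovl5, an elongase of polyunsaturated chains, changed by 0.02 or less in size in each comparison, though on the spike-in scale it fell in hypoxia (-0.51, adjusted p = 0.0155). It was dim, well above background on 2 of 3 arrays in hypoxia and in quercetin.

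Normoxia replicate 2 stood apart in more members than the other arrays did. It lay over 0.5 from both other arrays of its group for 8 members (Idi1, Fdps, Nsdhl, Srebf1, Insig1, Insig2, Npc1 and Elovl6), beside 13.4% of all genes. Quercetin replicate 2 did so for 4 (Mvd, Insig1, Insig2 and Elovl6), beside 5.72% of all genes, and quercetin replicate 3 for Fdft1 alone. No other array did so for any member.

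Other settings ended further calls. With the scan day as a block, where normoxia replicate 3 is the sole control on its day, quercetin against normoxia missed the threshold for Tm7sf2 (0.45, adjusted p = 0.0791), Elovl6 (-1.08, 0.113), Elovl1 (-0.36, 0.0971), Fads1 (-0.45, 0.0799), Fdps (-0.58, 0.0736), Hmgcs1 (-0.28, 0.126), Srebf2 (-0.39, 0.143), Insig2 (0.73, 0.371) and Acly (0.36, 0.0902). The normexp background correction ended 10 calls in hypoxia against normoxia, those of Fads2, Fdft1, Fdps, Idi1, Insig2, Lss, Npc1, Npc2, Pmvk and Srebf1. With quercetin against hypoxia it ended 8, those of Ebp, Fads1, Lss, Mvd, Mvk, Npc2, Srebf1 and Srebf2, and with quercetin against normoxia 9, those of Acly, Elovl1, Fads1, Fads2, Hmgcs1, Insig2, Sc5d, Srebf2 and Tm7sf2. It also left fewer genes passing, 6709 in hypoxia against normoxia in place of 14190.

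Of 41 other genes of the pathway, 34 were tested: 10 rose and 16 fell in hypoxia, 13 were higher and 12 lower with quercetin than in hypoxia alone, and 6 were higher and 9 lower with quercetin than in normoxia. In either direction 76.5%, 73.5% and 44.1% passed, beside 64.2%, 58.4% and 44.3% of all genes. The median changes of the 34 were -0.26, 0.20 and -0.05. Aacs, which makes acetoacetyl-CoA from a ketone body, changed by -1.95 ± 0.10 and then 1.33 ± 0.10 with quercetin. Lbr, a nuclear envelope protein with sterol reductase activity, changed by -1.77 ± 0.12 and 1.13 ± 0.12. Slc25a1, which exports citrate from mitochondria, changed the other way, by 1.00 ± 0.09 and -1.03 ± 0.09, as did Mbtps2, a protease that releases SREBPs, by 0.78 ± 0.09 and -0.47 ± 0.09. Hsd17b12, a reductase of fatty acid elongation, stepped down, by -0.80 ± 0.09 and -0.54 ± 0.09. Each of these 10 changes of 5 genes passed, with adjusted p from 3.05e-06 to 0.00282.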

How the data were processed

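Gene expression was measured on 9 one-colour Agilent rat arrays, 3 per group. The deposited intensity values are the scanner's processed signal, background-subtracted and detrended within each array by Feature Extraction 10.7.3.1, per the file headers, with probe positions on rn4. The deposited log2 value table, whose columns share 1 distribution, served as an alternative, and no source used here states how the authors made it. The labels name a miRNA labelling kit, while the file headers name a gene expression protocol.

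After 1639 control spots and 71 to 148 outlier spots per array were left out, log2 intensity minus the array's 75th percentile was averaged by probe. A probe was kept if, in 1 group or more, each array had it well above background (26656 of 41012), and the brightest kept probe stood for each of 22103 genes. Probes were named through RefSeq (GRCr8) by accession (18348), symbol (3003) or synonym (394), and otherwise by the file (19267). Group means were fitted over all 9 arrays with limma 3.58.1 (R 4.3.3, lmFit and eBayes), with Benjamini-Hochberg adjustment and a threshold of 0.05. A simulation planted differences in only 200 of the 22103 genes. There the fit for hypoxia against normoxia recovered 26.9% of 1.5-fold, 61.2% of 2-fold and 90.9% of 4-fold changes, with 5.56% false calls. In the measured arrays 14190 genes passed for that comparison, so these rates do not give the sensitivity of the tests reported here. The number of arrays limits the precision.

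The members and gene lists were chosen with earlier results of these data known. The rule for named genes took all members and up to 8 further pathway genes with the smallest adjusted p, plus Msmo1, Scd and Scd2, and the text names part of what it allows, since some items are not reported here. Alternatives changed the background correction, scaling, probe filter, probe summary, slide, scan day or replicate block, the groups fitted, or left out 1 array.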

Additional observations from a re-analysis of the deposited data

How the results depend on the processing

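Of the member calls, 7 of 21 in hypoxia against normoxia, 11 of 20 in quercetin against hypoxia and 3 of 14 in quercetin against normoxia held under every alternative run. Without each array in turn, 14, 16 and 12 held; genes passing ranged from 12326 to 14407, 10990 to 14029 and 7695 to 9878, members higher from 3 to 6, 10 to 14 and 4 to 6, and members lower from 13 to 18, 6 to 9 and 8 to 11. Over the same omissions the members' median ranged from -0.41 to -0.29, 0.05 to 0.14 and -0.20 to -0.09, that of oxygen-consuming members from -0.35 to -0.22, -0.09 to 0.11 and -0.09 to 0.11, and that of the others from -0.46 to -0.33, 0.09 to 0.18 and -0.21 to -0.10. Normexp background correction left 6709, 6154 and 3167 genes. In hypoxia against normoxia it gave 2 members higher, 9 lower and a median of -0.29, in quercetin against hypoxia 3 lower and medians of 0.24 (members), 0.27 (oxygen-consuming) and 0.22 (others), and in quercetin against normoxia 1 higher, 4 lower and a median of -0.067, with Fads2 reversed (0.085). Spike-in scaling gave, in hypoxia against normoxia, 1 higher, 26 lower and medians of -0.88, -0.78 and -0.93, and reversed Acly (-0.38), Cyp51 (-0.50), Elovl1 (-0.10), Hmgcs1 (-0.36), Mvk (-0.34) and Pmvk (-0.066). In quercetin against hypoxia it gave 5 lower and medians of 0.19 (members) and 0.26 (others), and in quercetin against normoxia 1 higher, 20 lower and medians of -0.57, -0.39 and -0.58, with Acly (-0.061), Cyp51 (-0.39) and Fasn (-0.36) reversed. The slide block and the scan day block divide the arrays alike, so for hypoxia against normoxia they are the same fit. It gave a median of -0.25 for members and for others, where 1 normoxia array remains. In quercetin against normoxia the scan day block left 5812 genes, with 2 members higher and 3 lower. Quantile normalization and the authors' value table moved the median of the others in hypoxia to -0.51, and median scaling that in quercetin against normoxia to -0.24. With probes well above background on all 9 arrays the medians in quercetin against hypoxia were 0.21 (members), 0.42 (oxygen-consuming) and 0.21 (others), and 0.22 for oxygen-consuming members against normoxia. With no filter on dim probes the others' median was 0.085 in quercetin against hypoxia, and 3 members were higher in quercetin against normoxia; averaging kept probes gave 0.21 for the former. Fitting only the groups compared left 3 members higher in quercetin against normoxia. The cause of these shifts was not tested. The replicate numbers were not found to pair the samples: deviations of same-numbered samples correlated at -0.27 to 0.02 and of others at -0.09 to 0.25, and the replicate block gave 13198, 11967 and 8510 genes, with 4 members higher and 16 lower, 12 and 7, and 3 and 9. A fixed slide block could not be fitted for the comparisons with quercetin.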
